A study of Mus musculus with 42 samples.

Results

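The 10 genes described here encode enzymes that act on methyl groups at lysine 9 of histone H3 (H3K9), namely Kdm1a, Kdm3a, Kdm3b, Jmjd1c, Kdm4a, Kdm4b, Kdm4c, Kdm4d, Phf8 and Phf2. They were listed by name as known H3K9 demethylases, and all 10 were found among the 35275 genes of each of the 2 deposited count tables. RNA-seq of cerebellum gave 30 libraries in 6 groups of 5, from male mice of a C57BL/6 line that were 3 months old when feeding was changed. AL mice ate ad libitum, IF16 mice fasted for 16 h of each day, and EOD mice fasted on alternate days, all for 3 months, so that they were 6 months old at collection. AL-R, IF16-R and EOD-R mice (the labels write a dot for the hyphen) went through the same 3 regimens, then all ate ad libitum for 2 months, and were 8 months old at collection. No group carried a genetic change. The labels do not say whether each library is a separate animal, so p-values measure the spread between these libraries. The hour of collection relative to the last meal is not given in the sources used here. The series also holds 12 chromatin samples for trimethylated H3K9 and their inputs, which were not analysed here.

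Methylated H3K9 marks silent chromatin, and its removal is shared among several enzyme families. Kdm1a (LSD1) is a flavin-dependent oxidase that acts on mono- and dimethylated lysine and works within the CoREST repressor complex, mainly on H3K4 and in some settings on H3K9. The others carry a JmjC domain, which needs iron, oxygen and 2-oxoglutarate and is inhibited by succinate and fumarate. In neurons, loss of some of these enzymes is known to disturb differentiation and cognition, and mutations of human PHF8 cause an X-linked intellectual disability.

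The Kdm3 enzymes act on mono- and dimethylated H3K9. Kdm3a (ENSMUSG00000053470) lies on the minus strand at chr6:71588974-71632905 (build mm10) and is a known hypoxia-induced gene. Kdm3b (ENSMUSG00000038773) lies on the plus strand at chr18:34777008-34839370. Jmjd1c (ENSMUSG00000037876) lies on the plus strand at chr10:67096125-67256326, and its activity on H3K9 is disputed.

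The Kdm4 enzymes act on di- and trimethylated H3K9, and Kdm4a to Kdm4c act on H3K36 as well. Kdm4a (ENSMUSG00000033326) is on the minus strand at chr4:118136957-118180043 and Kdm4b (ENSMUSG00000024201) on the plus strand at chr17:56326062-56402870. Kdm4c (ENSMUSG00000028397) is on the plus strand at chr4:74242497-74405860 and Kdm4d (ENSMUSG00000053914) on the minus strand at chr9:14462548-14500482. Phf8 (ENSMUSG00000041229), on the plus strand at chrX:151520672-151633859, has a PHD finger that binds methylated H3K4 and removes H3K9 mono- and dimethylation. Phf2 (ENSMUSG00000038025), on the minus strand at chr13:48801750-48870885, is its relative and needs phosphorylation for activity. Kdm1a (ENSMUSG00000036940) is on the minus strand at chr4:136550540-136602723. Its span overlaps Luzp1 on the opposite strand (mean count 3906), and that of Jmjd1c overlaps Reep3 on the opposite strand (mean count 2082). The handling of strand is not given in the sources used here, so reads of these pairs may not be told apart.

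The promoters of Kdm3a and Phf8 are shown because these were the 2 genes with the smallest p-values at the end of the regimens. Windows of 8 of the 10 genes were taken from RefSeq annotation of GRCm38.p6, each running from 250 bases before an annotated start to 50 bases after it. The window of Kdm3a is chr6:71632868-71633167 and that of Phf8 chrX:151520422-151520721, both printed 5′ to 3′ on the strand of the gene. Capitals mark matches on either strand to the hypoxia-factor core motifs ACGTG and GCGTG, the CRE motif TGACGTCA and the CCAAT box.
Kdm3a: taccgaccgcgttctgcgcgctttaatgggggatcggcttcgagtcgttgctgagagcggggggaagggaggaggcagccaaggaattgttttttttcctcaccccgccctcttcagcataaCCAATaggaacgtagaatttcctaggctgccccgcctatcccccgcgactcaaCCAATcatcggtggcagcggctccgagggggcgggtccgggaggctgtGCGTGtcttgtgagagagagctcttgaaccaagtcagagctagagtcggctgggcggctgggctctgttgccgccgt
Phf8: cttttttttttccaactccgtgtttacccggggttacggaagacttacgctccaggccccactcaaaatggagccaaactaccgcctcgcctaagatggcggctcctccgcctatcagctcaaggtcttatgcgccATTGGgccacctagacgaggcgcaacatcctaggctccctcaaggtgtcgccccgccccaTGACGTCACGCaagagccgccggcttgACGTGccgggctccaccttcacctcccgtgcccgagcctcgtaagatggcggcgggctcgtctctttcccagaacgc

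The Kdm3a window held GCGTG at position -27, counted from the start site at 0, and CCAAT at -128 and -75. This is 1 of 3 start sites of Kdm3a in the table, and the other two windows held none of the motifs. The Phf8 window held TGACGTCA at -54, GCGTG on the opposite strand at -48 where it overlaps that motif, ACGTG at -27 and CCAAT on the opposite strand at -114. Of 32851 windows of 300 bases, 19.6% held ACGTG, 32.4% GCGTG, 1.79% TGACGTCA and 37.4% CCAAT. The CRE motif of Phf8 was thus the least common of these matches. The hypoxia-factor core motifs were not limited to these 2 genes. A window of Kdm4c held 4 ACGTG and 2 GCGTG, and windows of Kdm1a and Jmjd1c held 3 GCGTG each. The windows of Kdm4a, Kdm4d and Phf2 and the other windows of Kdm4c and Jmjd1c held neither.

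Total counts ranged from 26799825 to 36167435 per library, and the cerebellar markers Gabra6 (granule cells, 399 to 679 CPM) and Pcp2 (Purkinje cells, 97.9 to 248 CPM) were present in all 30. CPM are counts relative to library size, scaled by TMM within each table. Choroid plexus markers varied most, with Ttr at 7.83 to 4104 CPM, whereas forebrain Neurod6 stayed at 3.08 to 6.94 CPM. In 3 libraries, replicates 4 and 5 of AL and replicate 1 of IF16, long transcripts were low. Their length gradient, the slope of gene-centred log2 CPM on log2 gene length, was -0.158, -0.106 and -0.114, against -0.0301 to 0.139 in the other 12 libraries of that table. Beside the main results, values without these 3 libraries are given. In a whole tissue, fewer cells of a type and less RNA per cell cannot be told apart.

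All 10 genes passed the filter on low counts. On the scale of FPKM, which is per length, Phf2 had the highest median level over the 30 libraries (21.4), followed by Kdm1a (20.9) and by Kdm4b, which ranged from 17.3 to 22.7. Neighbours at the top were close, since Phf2 exceeded Kdm1a in only 16 of 30 libraries and Kdm1a exceeded Kdm4b in 21. Kdm4b exceeded Kdm4a in all 30. Kdm4a (16.2) and Jmjd1c (16.2) did not separate, with Kdm4a higher in 14 of 30 libraries. Kdm3b followed at a median FPKM of 12.9, below Jmjd1c and above Kdm3a in every library. Kdm3a (6.78), Kdm4c (6.26) and Phf8 (5.42) formed the next step, Kdm3a above Kdm4c in 23 libraries and Kdm4c above Phf8 in 27. Kdm4d was barely detected, at a median FPKM of 0.203 and 11 to 30 counts per library.

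**Figure D1:**
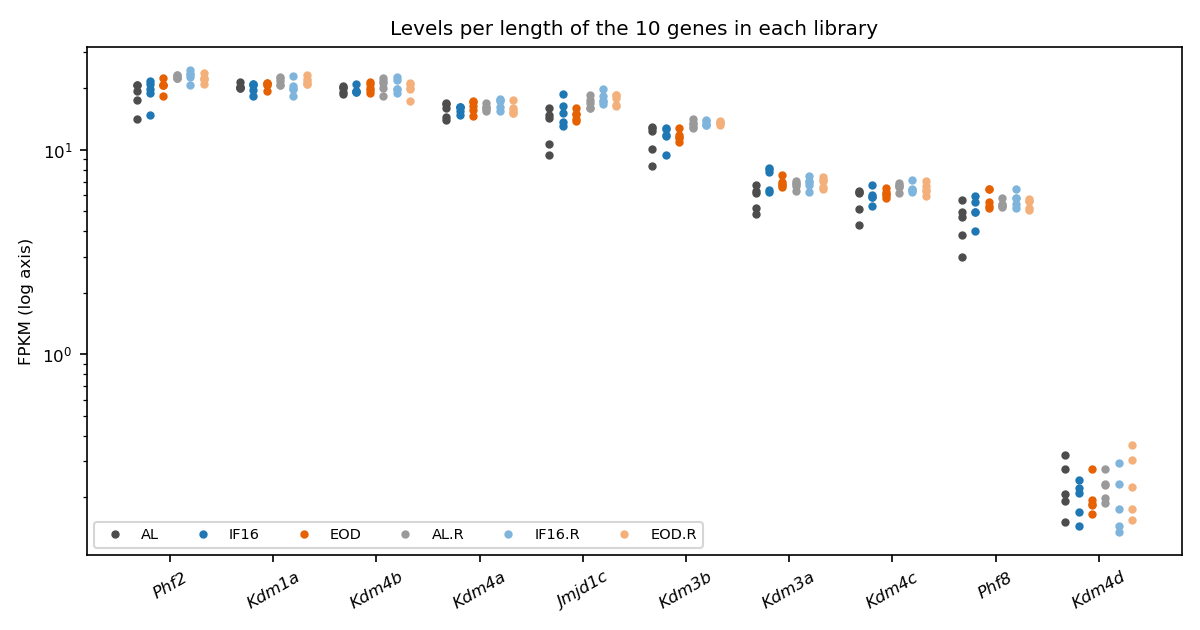
FPKM of the 10 genes (log axis) in each of the 30 libraries, coloured by group; each point is 1 library and genes are ordered by their median. From Phf2 at a median of 21.4 to Phf8 at 5.42, 9 genes lie within 1 decade, and Kdm4d sits at 0.203.

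The levels of the 10 genes added up to 115 ± 11.8 FPKM in AL (SD, n = 5), 121 ± 8.23 in IF16 and 123 ± 3.71 in EOD. The refed sums were 131 ± 2.24 for AL-R, 132 ± 4.44 for IF16-R and 130 ± 3.15 for EOD-R. Without the 3 libraries of low length gradient the AL sum was 123 ± 1.83 (SD, n = 3) and the IF16 sum 124 ± 3.92 (SD, n = 4), so the lower AL mean came with replicates 4 and 5. The Kdm4 family held the largest share of this sum. Its mean was 36.1% in AL, 34.6% in IF16, 34.7% in EOD and 32.6% to 33.6% in the refed groups. Libraries ranged from 34.0% to 38.8% in AL, 33.0% to 37.2% in IF16 and 33.5% to 36.2% in EOD, so these groups overlapped. The Kdm3 family held 26.1% in AL and 29.2% in EOD-R, and Phf8 with Phf2 held 19.9% in AL and 21.8% in IF16-R. For the Kdm3 family libraries ranged from 23.3% to 28.6% in AL and from 28.2% to 30.5% in EOD-R. Shares without the 3 libraries of low length gradient were not computed.

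The first question is whether the 2 fasting regimens changed these transcripts by the end of 3 months. No member passed the test in either: 0 of 10 had an edgeR adjusted p under 0.05 in IF16 against AL, where 0.0483% of all genes tested did, and 0 of 10 in EOD against AL, where 0.0664% did. DESeq2 called 0 in each as well. The smallest p-values belonged to Kdm3a, at means 1.24-fold of AL in IF16 and 1.19-fold in EOD, and to Phf8, at 1.32-fold of AL in EOD. At unadjusted p under 0.05 stood 1 member in IF16 against AL (background 9.92%) and 2 in EOD against AL (background 14.4%). These shares of 10 genes are near the background. Both comparisons use the same 5 AL libraries.

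Kdm3a removes mono- and dimethylation from H3K9 and is known for roles in metabolism and spermatogenesis. Its level in AL was 31.9, 29.7, 30.1, 24.4 and 25.7 CPM in replicates 1 to 5. In IF16 it was 30.9, 30.3, 36.6, 38.8 and 39.7 CPM. Replicates 1 and 2 of IF16 lay within the AL range and the other 3 above it, so the groups overlapped. The log2 fold change was 0.31 (SE 0.0905, 95% interval 0.12 to 0.51), with an unadjusted p of 0.00299 and an edgeR adjusted p of 0.299. In EOD the values were 36.2, 33.8, 32.7, 33.4 and 33.2 CPM. All 5 EOD libraries lay above all 5 AL libraries, as was so for 1.36% of all genes tested in this direction, and Kdm3a was the only member without overlap in either comparison. The log2 fold change was 0.25 (SE 0.0906, 95% interval 0.06 to 0.45), with an unadjusted p of 0.0122 and an edgeR adjusted p of 0.314. Without the 3 libraries of low length gradient, the log2 fold change of Kdm3a was 0.25 in IF16 (unadjusted p 0.0133) and 0.14 in EOD (unadjusted p 0.116). With the gradient as a covariate it was 0.26 (unadjusted p 0.000588, edgeR adjusted p 0.0902) and 0.14 (unadjusted p 0.0474).

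Phf8 had 35.4, 31.2, 29.3, 19.6 and 24.8 CPM in replicates 1 to 5 of AL. In EOD it had 33.5, 41.0, 35.2, 42.7 and 33.5 CPM. Replicate 1 of AL lay within the EOD range and the other 4 below it. The log2 fold change was 0.41 (SE 0.137, 95% interval 0.12 to 0.70), with an unadjusted p of 0.00898 and an edgeR adjusted p of 0.302. In IF16 Phf8 had 25.4, 31.7, 36.7, 35.0 and 31.8 CPM, a log2 fold change of 0.19 (SE 0.137, unadjusted p 0.174). Replicate 1 of IF16, one of the low-gradient libraries, was the lowest of the group. Without the 3 libraries the EOD difference was 0.21 on the log2 scale (unadjusted p 0.0437, edgeR adjusted p 0.657), and with the gradient as a covariate 0.19 (unadjusted p 0.0113, edgeR adjusted p 0.437).

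**Figure D2:**
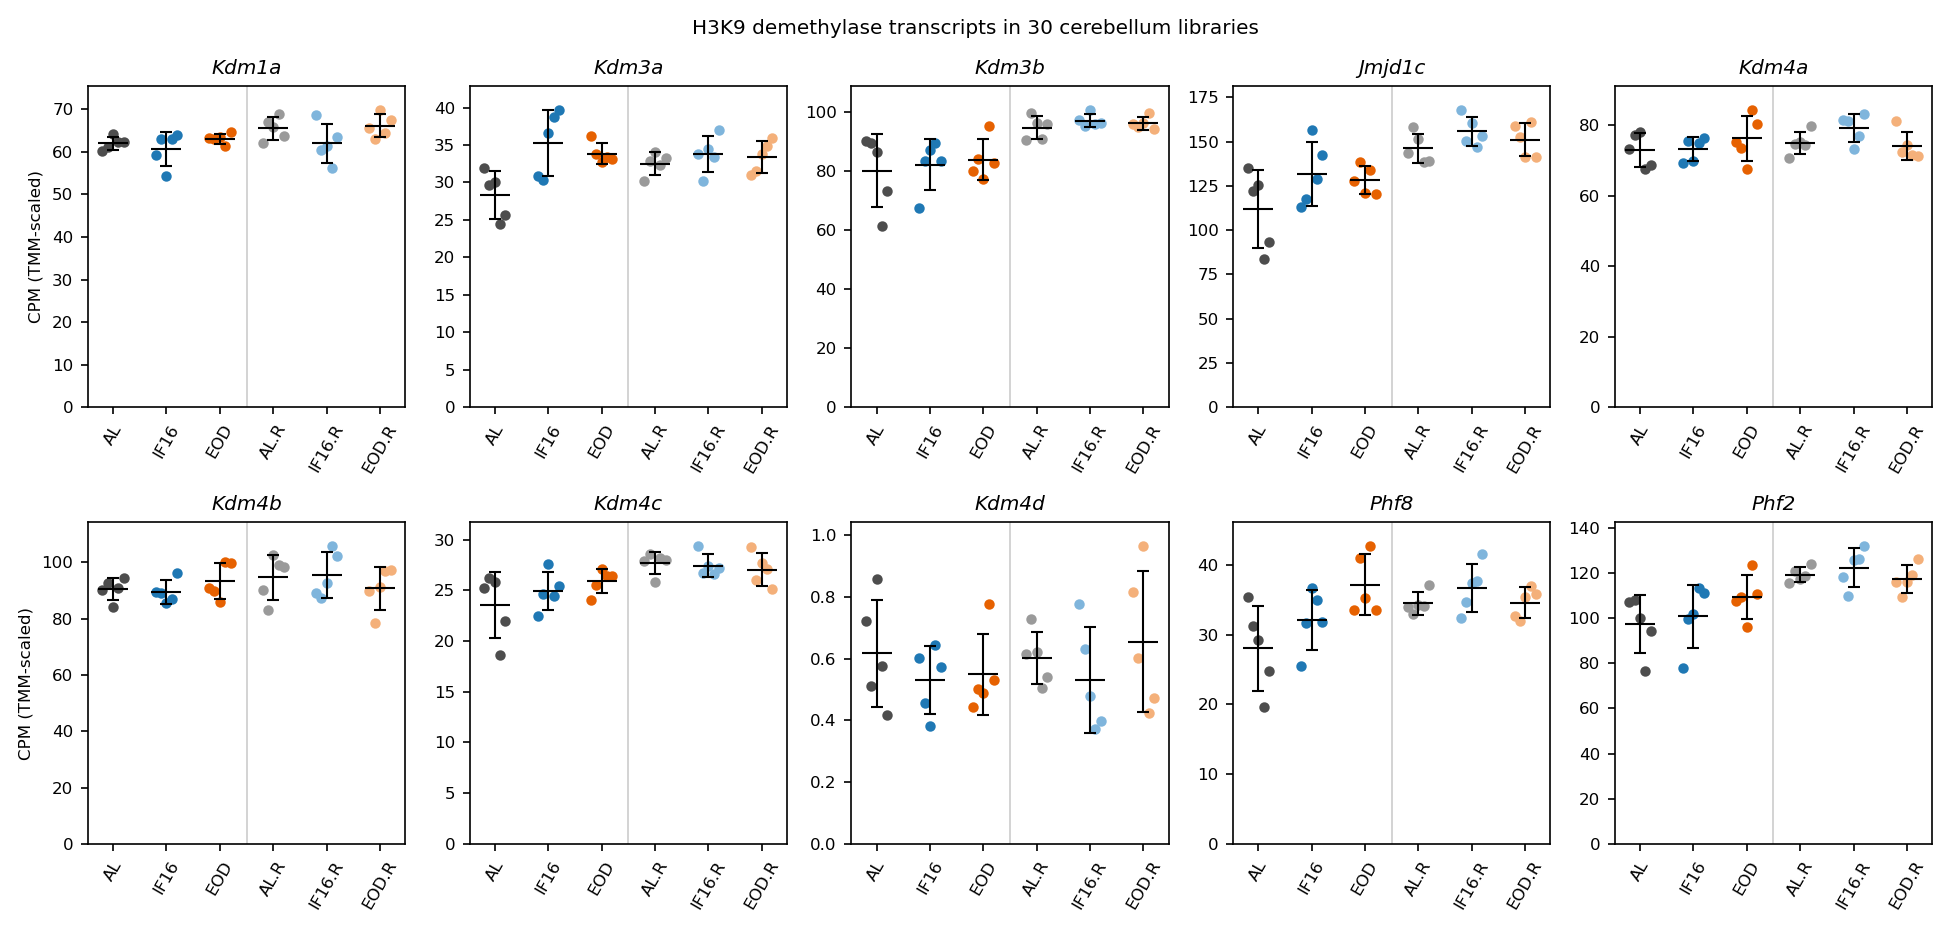
CPM of each gene in the 30 libraries by group, with axes from 0; points are libraries in the order of replicates 1 to 5, black marks the mean and SD, and the grey line parts the 2 tables. Kdm3a in EOD (32.7 to 36.2) lies above AL (24.4 to 31.9), and replicate 4 of AL is the lowest AL library for 7 of the genes.

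Jmjd1c, the largest transcript of the Kdm3 family, had 135, 122, 125, 83.8 and 93.5 CPM in AL. The AL mean was 112 ± 22.1 CPM (SD, n = 5), against 132 ± 18.0 for IF16 and 128 ± 7.95 for EOD. The groups overlapped, and the log2 fold changes were 0.23 (95% interval -0.02 to 0.49, edgeR adjusted p 0.532) in IF16 and 0.19 (-0.06 to 0.45, edgeR adjusted p 0.406) in EOD. Without the 3 low-gradient libraries the Jmjd1c values were 0.09 and 0.00019, and with the gradient as a covariate 0.15 and 0.01. Kdm3b, the paralogue of Kdm3a, averaged 80.2 ± 12.5 CPM across AL, 82.2 ± 8.65 across IF16 and 84.0 ± 6.87 across EOD. Its log2 fold changes, 0.03 and 0.07, were smaller than their SE of 0.104 in both comparisons.

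Among the Kdm4 genes no difference exceeded the spread between libraries. For Kdm4a the AL mean was 72.9 ± 4.76 CPM, the IF16 mean 73.3 ± 3.32 and the EOD mean 76.3 ± 6.44. Kdm4b stood at 90.5 ± 3.97, 89.4 ± 4.17 and 93.4 ± 6.26 CPM in the same order. Kdm4c, at 23.6 ± 3.24, 24.9 ± 1.87 and 25.9 ± 1.16 CPM, had log2 fold changes of 0.08 and 0.14 (edgeR adjusted p 0.744 for IF16 and 0.425 for EOD), which were -0.02 and 0.0017 without the 3 low-gradient libraries. Kdm4d, best known from testis, had 13 to 30 counts per AL library, and its 95% intervals were too wide to judge, from -0.71 to 0.27 in IF16 and from -0.66 to 0.33 in EOD.

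Phf2 averaged 97.2 ± 12.8 CPM across AL, 101 ± 14.1 across IF16 and 109 ± 9.78 across EOD, and the groups overlapped. Its log2 fold changes were 0.05 (edgeR adjusted p 0.868) and 0.17 (edgeR adjusted p 0.409). Kdm1a varied least, with means of 62.0 ± 1.54 CPM for AL, 60.7 ± 4.05 for IF16 and 63.1 ± 1.18 for EOD. Its biological coefficient of variation in this table was 7.06%, lower than in all but 1.94% of genes, against 15.4% for Phf8. The 95% interval of the Kdm1a log2 fold change ran from -0.15 to 0.08 in IF16 and from -0.09 to 0.14 in EOD.

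The median log2 fold change of the 10 genes was 0.04 in IF16 against AL, with -0.0062 over all genes tested, and 7 of the 10 were positive, as were 48.7% of all genes. In EOD against AL the median was 0.10, with -0.02 over all genes, and 9 of the 10 were positive, as were 46.7% of all genes. Without the 3 low-gradient libraries the median of the 10 was -0.0075 in IF16, with 5 positive (48.3% of all genes), and 0.01 in EOD, with 7 positive (49.1% of all genes). Apart from Kdm4d, 95% intervals stayed within -0.19 to 0.51 in IF16 and -0.16 to 0.70 in EOD. Between the regimens, 0 of 10 differed in EOD against IF16 by edgeR (0.0% of all genes called) and by DESeq2, and 0 of 10 were at unadjusted p under 0.05 (background 3.62%). The widest gap was that of Phf8, 0.21 on the log2 scale (SE 0.137, unadjusted p 0.142).

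**Figure D3:**
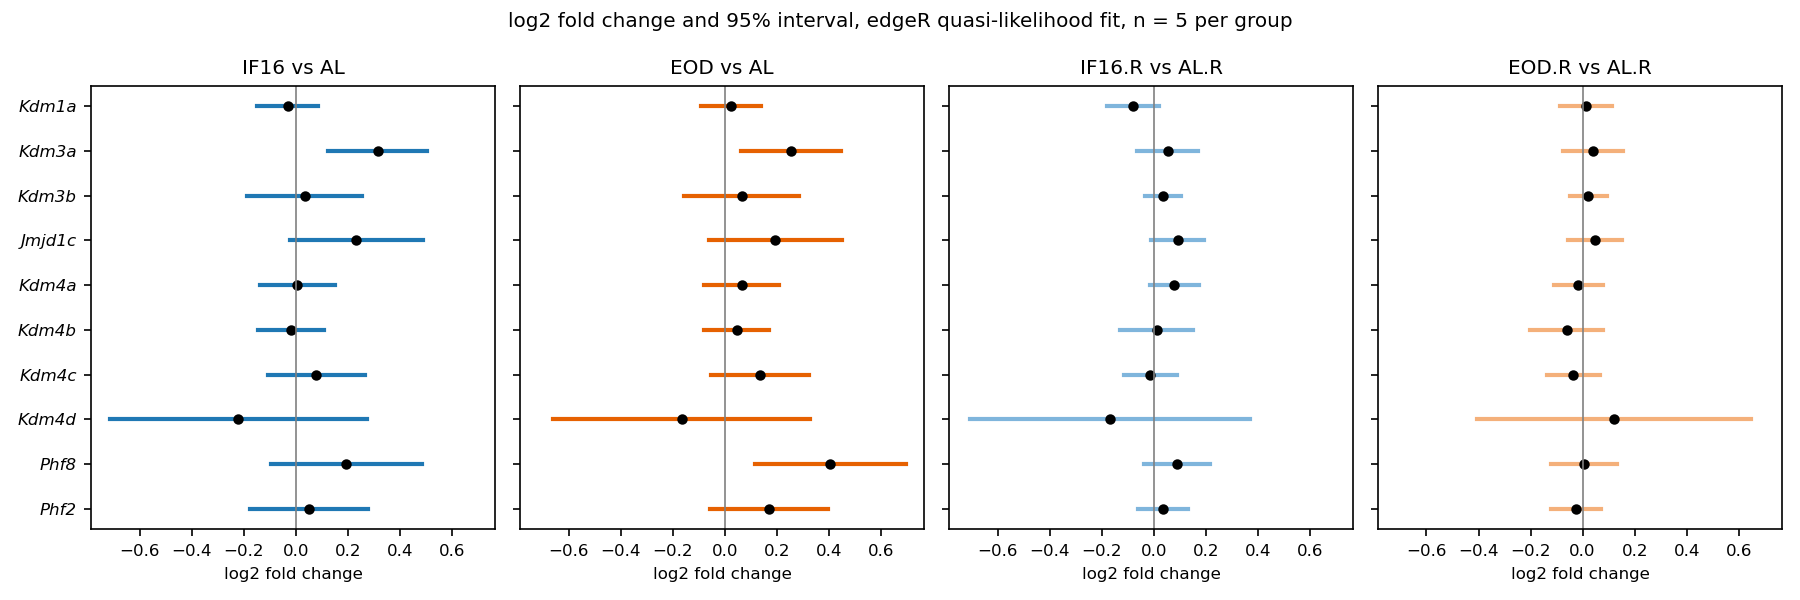
log2 fold change (points) and 95% interval (bars) of each gene against the control group of its table, from the edgeR fit with 5 libraries per group. The intervals of Kdm3a in IF16 and EOD and of Phf8 in EOD lie above 0, and after refeeding all intervals span 0.

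Several members moved together with the length gradient across the 15 libraries of this table. For Phf8 the correlation of log2 CPM with the gradient was r = 0.92 (permutation p 1e-05, the smallest that 100000 resamples can give, adjusted p 0.0001 over 20 relations) and rho = 0.84 (permutation p 0.00026, adjusted p 0.0026). For Jmjd1c r was 0.87 (permutation p 5e-05, adjusted p 0.00025) and rho 0.94 (permutation p 1e-05, adjusted p 0.0002). For Kdm3a r was 0.73 (permutation p 0.0022, adjusted p 0.0073) and rho 0.68 (permutation p 0.0065, adjusted p 0.021). Kdm3b (r = 0.90), Phf2 (r = 0.89), Kdm4c (r = 0.78) and Kdm4a (r = 0.64) also had an adjusted permutation p under 0.05 for r, though not for rho in Kdm4c and Kdm4a. Since the gradient is itself a slope over all genes, many genes follow it: 22.7% of all genes tested had an r at or above that of Kdm4a and 5.44% one at or above that of Phf8. Among the 7588 genes of 3028 to 8609 bases, the lengths of the members other than Kdm4d, these shares were 37.6% and 8.34%. Leaving out the 2 libraries farthest from the median gradient gave r = 0.85 for Phf8, 0.88 for Jmjd1c and 0.70 for Kdm3a, but 0.35 for Kdm4a, whose relation rested on those libraries. For Kdm1a (r = -0.13), Kdm4b (r = 0.12) and Kdm4d (r = 0.21) no relation was found (permutation p 0.64, 0.67 and 0.45). The gradient itself did not differ detectably between IF16 and AL (exact permutation p 0.452) or EOD and AL (exact permutation p 0.175), 5 against 5.

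In the refed table, where the gradient spanned only -0.0261 to 0.0416, the relation passed adjustment for Jmjd1c (r = 0.65, permutation p 0.0087, adjusted p 0.025, rho = 0.72, permutation p 0.0033, adjusted p 0.016) and for Kdm3b by r only (r = 0.60, permutation p 0.019, adjusted p 0.041, rho = 0.59, permutation p 0.022, adjusted p 0.064). Without the 2 farthest libraries these were r = 0.73 and 0.58. An r at or above that of Jmjd1c was found for 4.71% of all genes tested, and one at or above that of Kdm3b for 6.66%. Among genes of 3028 to 8609 bases these shares were 7.24% and 10.2%. The gradient also differed by group here, higher in IF16-R than in AL-R (exact permutation p 0.00794). As deviations from group means, given as a description, Kdm3b and Phf8 had r = 0.94 over the 15 libraries of the first table and 0.11 over the 15 refed ones. Kdm1a and Jmjd1c had r = -0.33 and 0.20. The first table's libraries span the wide range of length gradient given above.

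**Figure D4:**
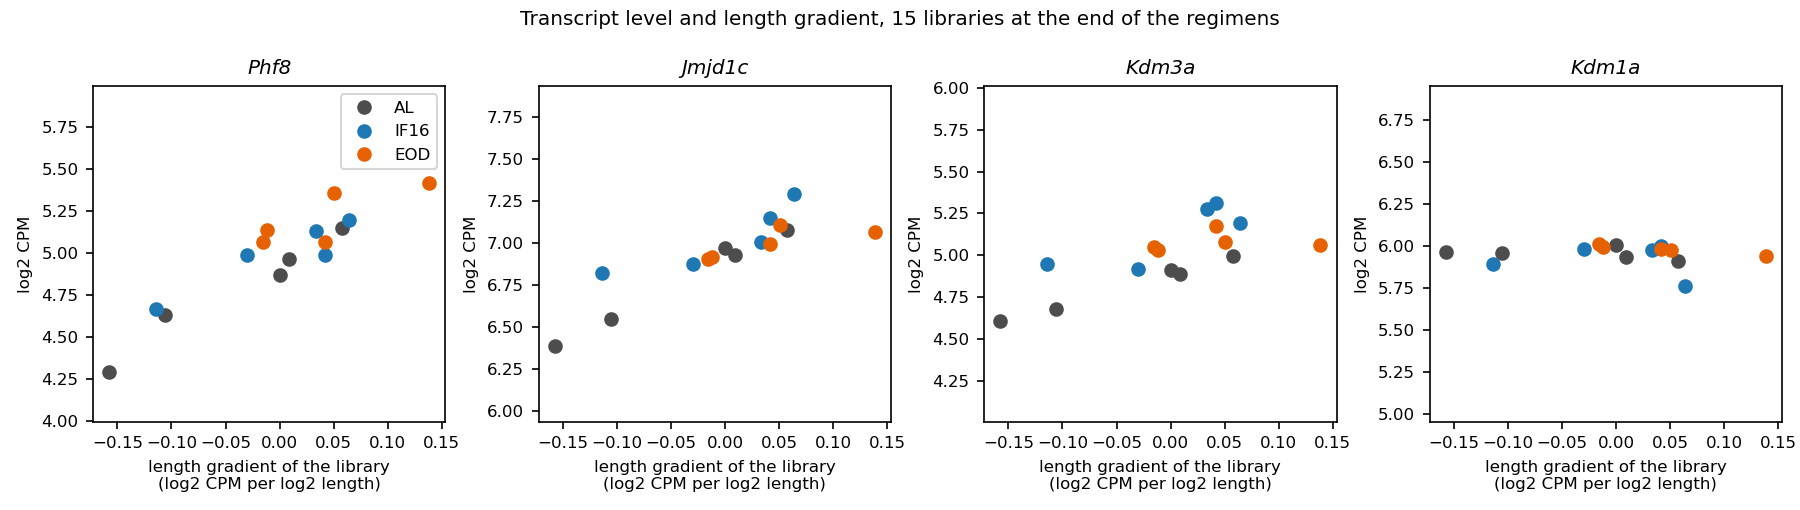
log2 CPM of Phf8, Jmjd1c, Kdm3a and Kdm1a against the length gradient of the library (slope of gene-centred log2 CPM on log2 length) in AL, IF16 and EOD; each point is 1 library and every panel spans 2 log2 units. Phf8 (r = 0.92), Jmjd1c (r = 0.87) and Kdm3a (r = 0.73) slope upward and Kdm1a (r = -0.13) is flat.

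The second question is whether differences remained after 2 months of refeeding. None was found: 0 of 10 members had an edgeR adjusted p under 0.05 in IF16-R against AL-R (0.17% of all genes called) or in EOD-R against AL-R (0.0426% of all genes called), and DESeq2 also called 0. At unadjusted p under 0.05 there were 0 members in IF16-R against AL-R (background 9.58%) and 0 in EOD-R against AL-R (background 8.5%). The spread was smaller here, with a common coefficient of variation of 8.05% against 14.29% in the first table, so the intervals are narrower. Apart from Kdm4d, 95% intervals of the log2 fold change stayed within -0.18 to 0.22 in IF16-R and -0.20 to 0.16 in EOD-R.

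Kdm3a had 30.1, 32.9, 34.1, 32.3 and 33.3 CPM in replicates 1 to 5 of AL-R. It had 33.8, 30.2, 34.5, 33.4 and 37.0 CPM in IF16-R and 31.0, 31.5, 33.9, 34.9 and 35.9 CPM in EOD-R. All 3 groups overlapped, with log2 fold changes of 0.05 (95% interval -0.06 to 0.17) and 0.04 (-0.08 to 0.16). Phf8 had 34.0, 32.9, 34.2, 34.1 and 37.2 CPM in AL-R. It had 32.4, 34.7, 37.4, 37.7 and 41.5 CPM in IF16-R and 32.7, 32.0, 35.5, 37.1 and 35.8 CPM in EOD-R. These groups overlapped too, with log2 fold changes of 0.09 (95% interval -0.04 to 0.22) and 0.0050 (-0.12 to 0.13).

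The smallest p-value against AL-R was that of Jmjd1c in IF16-R, at 156 ± 8.36 CPM against 146 ± 8.35 (log2 fold change 0.09, SE 0.0487, unadjusted p 0.0740, edgeR adjusted p 0.562). The length gradient was higher in IF16-R than in AL-R (exact permutation p 0.00794), and with it as a covariate the Jmjd1c difference was -0.02. All IF16-R gradients (0.0046 to 0.042) lay above all AL-R gradients (-0.026 to -0.0036), so this fit cannot tell regimen and gradient apart. Kdm1a, at 62.0 ± 4.51 CPM in IF16-R and 65.5 ± 2.71 in AL-R, had a log2 fold change of -0.08 (unadjusted p 0.117). Between the refed regimens, Kdm4a had 81.6, 81.4, 73.2, 77.1 and 83.1 CPM in IF16-R. It had 81.1, 72.4, 74.3, 71.7 and 71.2 CPM in EOD-R. Replicate 1 of EOD-R lay among the high IF16-R libraries, the groups overlapped, and the log2 fold change of EOD-R against IF16-R was -0.10 (SE 0.0451, unadjusted p 0.0461, edgeR adjusted p 0.508). Kdm4a was the 1 member of 10 at unadjusted p under 0.05 there (background 9.75%), 0 of 10 were called by edgeR or DESeq2 (0.0182% of all genes called), and the log2 fold change of Kdm4a was -0.08 with the gradient as a covariate (unadjusted p 0.248) and -0.09 with the choroid plexus score (unadjusted p 0.0634).

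Whether the difference from controls shifted between the end of the regimens and the end of refeeding was tested as an interaction over all 30 libraries. It sets libraries collected at 6 months against others collected at 8 months, so refeeding cannot be told apart from age or collection. By edgeR and DESeq2, 0 of 10 members passed adjustment for IF16 (0.0474% of all genes called) and 0 of 10 for EOD (0.0119% of all genes called). The Kdm3a difference in IF16 was smaller by 0.26 on the log2 scale after refeeding (estimate -0.26, SE 0.110, unadjusted p 0.0256, edgeR adjusted p 0.637), the 1 member at unadjusted p under 0.05 (background 7.21%). For EOD the 1 such member was Phf8 (estimate -0.40, SE 0.156, unadjusted p 0.0153, edgeR adjusted p 0.462, background 10.3%). Without the 3 low-gradient libraries the estimates were -0.19 for Kdm3a (unadjusted p 0.0681) and -0.21 for Phf8 (unadjusted p 0.0689). With the gradient as a covariate they were -0.26 for Kdm3a (unadjusted p 0.00311, edgeR adjusted p 0.157) and -0.19 for Phf8 (unadjusted p 0.0344, edgeR adjusted p 0.774).

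The controls of the tables differed more than the regimens did. In AL-R against AL, 4 of 10 members were called by edgeR, all higher in AL-R, where 11.5% of all genes were called higher and 23.9% in either direction. At unadjusted p under 0.05 there were 6 (background 40.0%), and 3 had all AL-R libraries above all AL libraries (background 5.78%). Age and whatever else set the 2 sets of mice and libraries apart cannot be told apart. Summed choroid plexus markers also differed, with a median of 2855 CPM in AL (181 to 5111) and 175 CPM in AL-R (165 to 2745). CPM values of the tables were scaled separately, and the fold changes come from 1 fit of all 30 libraries. Jmjd1c had 144, 158, 151, 138 and 139 CPM in AL-R against 83.8 to 135 in AL. All 5 AL-R libraries lay above all 5 AL libraries, with a log2 fold change of 0.38 (SE 0.0971, edgeR adjusted p 0.0106). Phf2 had 116, 121, 118, 119 and 124 CPM in AL-R against 76.7 to 108 in AL. These groups did not overlap either, with a log2 fold change of 0.29 (SE 0.0864, edgeR adjusted p 0.0202).

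Kdm4c had 27.9, 28.6, 25.8, 28.1 and 28.0 CPM in AL-R against 18.6 to 26.2 in AL, overlapping through replicate 3 of AL-R, with a log2 fold change of 0.23 (SE 0.0725, edgeR adjusted p 0.0273). Kdm3b had 90.7, 99.8, 96.5, 90.9 and 96.1 CPM in AL-R, all above the 61.5 to 90.2 of AL, with a log2 fold change of 0.23 (SE 0.0803, edgeR adjusted p 0.0357). Kdm3a (0.19, edgeR adjusted p 0.0677) and Phf8 (0.29, edgeR adjusted p 0.0540) did not pass. Kdm1a, Kdm4a and Kdm4b had log2 fold changes of 0.07, 0.03 and 0.06. The median over the 10 genes was 0.21, with -0.01 over all genes tested.

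The number of calls depended on the AL libraries included, for the members and for all genes alike. Without replicate 4 of AL 0 of the 10 were called (4.88% of all genes), without replicate 5 of AL 1 (7.34%), without replicate 1 of AL 6 (36.3%) and without replicate 2 of AL-R 2 (12.4%). The log2 fold changes moved less over the 10 fits that left out 1 library. That of Jmjd1c stayed between 0.28 and 0.46 and was called in 9 of them, and that of Phf2 stayed between 0.21 and 0.34 and was called in 8. That of Kdm4c stayed between 0.14 and 0.28 and that of Kdm3b between 0.15 and 0.29, called in 7 and 5. All 4 genes had an unadjusted p under 0.05 in all 10 fits.

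With the 3 low-gradient libraries left out 0 of the 10 were called, as were 0.881% of all genes, and the log2 fold changes were 0.19 for Jmjd1c (edgeR adjusted p 0.196), 0.18 for Phf2 (edgeR adjusted p 0.171), 0.10 for Kdm4c (edgeR adjusted p 0.401) and 0.09 for Kdm3b (edgeR adjusted p 0.402). With the gradient as a covariate they were 0.13, 0.07, 0.09 and 0.02, and 0 were called (1.32% of all genes). With the choroid plexus score as a covariate Jmjd1c alone was called (7.28% of all genes), while the 4 log2 fold changes were 0.33, 0.24, 0.21 and 0.20.

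**Figure D5:**
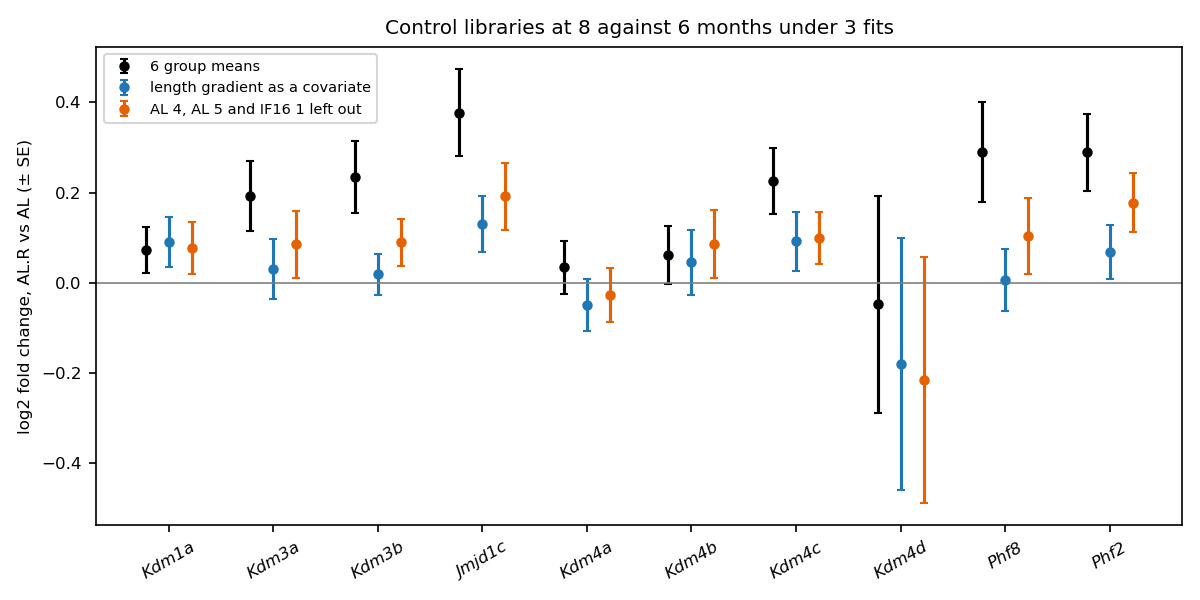
log2 fold change of AL-R against AL (± SE) for each gene in 3 fits, with 6 group means, with the length gradient as a covariate, and without the 3 low-gradient libraries. Jmjd1c moves from 0.38 to 0.13 and 0.19, and Kdm1a stays at 0.07, 0.09 and 0.08.

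Related genes were read from 5 lists. Of other lysine demethylases and JmjC proteins (22 of 23 tested), none was called by edgeR against AL after either regimen, with 0 at unadjusted p under 0.05 in IF16 and 2 in EOD. The smallest p-values were those of Uty in IF16 (log2 fold change 0.29, edgeR adjusted p 0.522) and Kdm5c, an H3K4 demethylase, in EOD (0.26, edgeR adjusted p 0.321). Of the opposing H3K9 methyltransferases, readers and heterochromatin factors (25 of 26 tested), none was called, with 1 and 2 at unadjusted p under 0.05. The H3K9 trimethylating enzyme Suv39h1 led in both, at 21.8 ± 1.14 CPM in IF16 and 21.8 ± 1.09 in EOD against 19.3 ± 1.03 in AL (edgeR adjusted p 0.408 and 0.314). Of the CoREST partners of Kdm1a (13 of 15 tested) none was called, with 1 and 1 at unadjusted p under 0.05. Hmg20b had the smallest p in IF16, at 27.1 ± 2.31 CPM against 33.7 ± 6.72 in AL (log2 fold change -0.31, edgeR adjusted p 0.419), and Phf21a in EOD (0.15, edgeR adjusted p 0.341).

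Of 33 genes that supply or consume 2-oxoglutarate, succinate, fumarate or FAD, none was called, with 1 and 3 at unadjusted p under 0.05. Gpt2, the mitochondrial alanine aminotransferase that makes 2-oxoglutarate, stood at 65.1 ± 9.76 CPM in IF16 and 64.3 ± 3.47 in EOD against 51.1 ± 3.48 in AL (log2 fold changes 0.35 and 0.33, edgeR adjusted p 0.242 and 0.221). Of 23 HIF regulators and hypoxia-induced genes none was called, and 5 were at unadjusted p under 0.05 in each comparison, all higher than in AL, where 9.92% of all genes were at that p in IF16 and 14.4% in EOD. Without the 3 low-gradient libraries 4 were higher and 1 lower in IF16, and 4 higher and 2 lower in EOD. Hif3a, a HIF subunit that can oppose the others, had the smallest p, at 9.40 ± 5.09 CPM in IF16 and 9.86 ± 3.91 in EOD against 3.43 ± 1.75 in AL (log2 fold changes 1.46 and 1.53, edgeR adjusted p 0.284 and 0.208). DESeq2 called 1 list gene in these comparisons, Gpt2 in IF16 (DESeq2 adjusted p 0.0467).

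After refeeding none of the 5 lists had a gene called by edgeR in the 3 comparisons of that table, nor in EOD against IF16 or in the interactions. DESeq2 called Wiz (DESeq2 adjusted p 0.0309) and Gse1 (DESeq2 adjusted p 0.0211), both lower in EOD-R than in IF16-R, and no other list gene in these comparisons. By edgeR, 0 to 5 genes of a list were at unadjusted p under 0.05, where 3.62% to 10.3% of all genes were. The 5 were of the 23 HIF regulators and hypoxia-induced genes in the IF16 interaction, all with negative estimates (7.21% of all genes at that p). In IF16-R against AL-R the smallest p-values in each list were those of Jarid2 (log2 fold change 0.11), Mphosph8 (0.11), Hmg20b (-0.12), Idh3a (-0.08) and Car9 (-0.28). In EOD-R against AL-R they were those of Jmjd4 (-0.16), Cbx3 (0.08), Gse1 (-0.16), Idh1 (0.14) and Vegfa (-0.17), with edgeR adjusted p from 0.280 to 0.555. In EOD against IF16 they were those of Kdm2b (0.11), Cbx1 (-0.10), Gse1 (0.37), Idh1 (-0.15) and Egln1 (0.12), and in EOD-R against IF16-R those of Jmjd7 (0.70), Wiz (-0.12), Gse1 (-0.28), Ogdh (-0.08) and Car9 (0.25). In the IF16 interaction they were those of Jmjd7 (-1.20), Wiz (0.25), Ctbp1 (0.14), Gpt2 (-0.33) and Car9 (-0.36), and in the EOD interaction those of Kdm2b (-0.17), Ehmt1 (-0.16), Ctbp1 (0.14), Idh1 (0.29) and Hif3a (-2.15).

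In AL-R against AL 23.9% of all genes were called. Of the other lysine demethylases and JmjC proteins 9 of 23 were called higher (Kdm1b, Kdm2a, Kdm2b, Kdm5a, Kdm6a, Kdm6b, Kdm7a, Jmjd4 and Hif1an) and 0 lower. Of the H3K9 writers and readers 5 of 25 were called higher (Mecom, Cbx5, Atf7ip, Zfp644 and Atrx) and 0 lower. Of the cosubstrate genes 8 of 33 were called lower (Idh1, Idh3g, Gpt, Bcat2, Psat1, Sdhb, Sdhc and Suclg1) and 1 higher (Slc25a32), and of the HIF list Ldha and Bnip3 were called lower. Of the CoREST partners 5 of 13 were called higher (Rcor1, Rcor3, Gse1, Zmym2 and Rest) and 1 lower (Hmg20b). DESeq2 called 11, 7, 9, 4 and 6 genes of these lists in the same order. Without the 3 low-gradient libraries 1 gene of the 5 lists was called, Bcat2, lower in AL-R, and with the gradient as a covariate it was again the only one.

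The genes most like Kdm3a, by correlation of log2 CPM as deviations from the group mean over the 30 libraries among 16310 genes, were Phactr4 (r = 0.90), AF529169 (r = 0.87) and Slfn5 (r = 0.87).

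Among cell type markers, none of the 10 choroid plexus genes passed edgeR's adjusted test in the 6 comparisons, and their summed level ranged from 181 to 5111 CPM in AL, 171 to 4131 in IF16 and 1179 to 3866 in EOD. The choroid plexus score did not differ detectably between IF16 and AL (exact permutation p 0.484) or EOD and AL (exact permutation p 0.429). With that score as a covariate, the log2 fold changes of Kdm3a were 0.29 in IF16 and 0.28 in EOD, and that of Phf8 in EOD was 0.46. Summed granule cell markers were 5803 to 6773 CPM in AL and 6049 to 6728 in EOD, and summed Purkinje cell markers 4492 to 5630 and 5360 to 6287. After refeeding, 1 of 7 Purkinje markers, Gng13, was called lower in IF16-R than in AL-R and higher in EOD-R than in IF16-R. Of 7 astrocyte and Bergmann glia markers 1, Aqp4, was called higher in IF16-R than in AL-R, with 3 higher at unadjusted p under 0.05 (9.58% of all genes in either direction). All 5 red blood cell markers were lower in EOD-R than in AL-R at unadjusted p under 0.05 (8.5% of all genes in either direction), with 0 called and sums of 14.9 to 25.7 CPM against 8.68 to 114. In that comparison 3 of 7 astrocyte and 3 of 7 oligodendrocyte markers were higher at that p. Endothelial markers were lower at that p for 2 of 5 in IF16 against AL (9.92% of all genes) and 2 of 5 in IF16-R against AL-R (9.58%). In EOD against AL 1 of 5 was lower (14.4%). One direction did not hold throughout, since 1 of 5 was higher in EOD-R against AL-R (8.5%) and in EOD-R against IF16-R (9.75%). Not all markers at that p are listed here. Of the microglial markers 3 of 6 were lower in EOD than in AL at unadjusted p under 0.05 (14.4% of all genes in either direction) and 0 were called by edgeR. Their sums were 90.7 to 124 CPM in AL and 83.8 to 93.6 in EOD. At that p 1 of 6 microglial markers was lower in IF16 than in AL, and 1 of 6 was higher in EOD-R than in AL-R. The part of all these markers in the values of the members was not tested.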

How the data were processed

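Per the submitters' processing notes, STAR 2.5, HTSeq 0.6.1, DESeq2 and build mm10 were used, with no roles given. The annotation release and the strand setting are not given in the sources used here. The authors deposited whole-number read counts and FPKM values per gene in 2 tables of 15 libraries each, with gene length as another column per the file headers. The deposited FPKM equalled counts divided by length and library total (largest relative difference 5e-12), so they carry no further scaling. Each column was matched to its sample by label. No pair of libraries within a group agreed within sampling noise, with a chi-square of 4.24 to 136 per degree of freedom over 60 pairs.

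Counts were tested with edgeR 4.0.16 (quasi-likelihood F test, TMM, filterByExpr by group) in R 4.3.3, in 1 fit per table for 6 comparisons (16577 and 16444 genes) and 1 fit of all 30 libraries for 2 interactions and AL-R against AL (16877 genes). Benjamini-Hochberg adjustment ran over all genes tested at 0.05. Alternatives were DESeq2 1.42.0, its size factors, no filter, 2-group fits, a replicate block, length gradient or choroid plexus score as a covariate, each library left out, and, chosen after seeing the data, 3 libraries left out together and, for the lists, DESeq2 and the gradient. Same-numbered libraries deviated together, at r over 0.1, in all 5 pairs of IF16-R and AL-R (r 0.139 to 0.523). So did 3 of 5 pairs of EOD-R and AL-R (r 0.0552 to 0.317) and 4 of 5 of EOD-R and IF16-R (r -0.0851 to 0.330). In the first table this held for 1 pair of IF16 and AL, 2 of EOD and AL and 0 of EOD and IF16. At 26799825 to 36167435 counts per library the spread between libraries, not counting error, limits precision for all members except Kdm4d.

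The members and lists were chosen with earlier results of these data known. Named beside the 10 members were list genes with an adjusted p under 0.05 or, where a list had none, its gene of smallest p, and the 3 genes most like the member of smallest p. Cell type markers were named where called.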

Additional observations from a re-analysis of the deposited data

Results flagged for a closer look

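A sample was singled out where its gap to the nearest other library, divided by the range of its group of 5, exceeded Dixon's 95% value of 0.71. Of 60 groups checked (10 genes in 6 groups) 3 were flagged, and chance flags about 1 in 20. Kdm3b in replicate 1 of IF16 had 67.4 CPM against 83.4 to 89.5 in the other 4. That library is one of the 3 with a low length gradient. Kdm4c in replicate 3 of AL-R had 25.8 CPM against 27.9 to 28.6 in the others. Kdm4d in replicate 4 of EOD had 0.778 CPM against 0.442 to 0.531, which is 26 counts.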

How the results depend on the processing

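In the 6 comparisons within a table and the 2 interactions, 0 members were called by edgeR under any alternative run, DESeq2 included. For AL-R against AL the called count of 4 became 0 with the length gradient as a covariate, 0 without the 3 low-gradient libraries, 1 with the choroid plexus score, and 0 to 6 with 1 library left out. All genes called fell as well, from 23.9% to 1.32%, 0.881% and 7.28% under the first 3 of these. Its count of 6 at unadjusted p became 1 with the gradient and 2 without the 3 libraries. All genes at that p fell from 6750 to 2336 and 2710 in the same fits. Other counts at unadjusted p were as follows. Brackets give the number of all genes at that p in the main fit and then in the alternative. With the gradient, IF16 against AL gave 2 (1644 and 2355), EOD against IF16 gave 1 (600 and 964) and EOD-R against IF16-R gave 0 (1603 and 772). With the choroid plexus score, EOD against AL gave 3 (2390 and 3751) and EOD against IF16 gave 1 (600 and 1087). With that score EOD-R against IF16-R gave 0 (1603 and 1451) and the EOD interaction gave 2 (1745 and 2183). Without the 3 libraries, EOD against AL gave 1 (2390 and 1247), the IF16 interaction 0 (1217 and 1414) and the EOD interaction 0 (1745 and 1049). IF16-R against AL-R gave 1 with no filter (1576 and 1965), and EOD-R against IF16-R gave 0 with only its 2 groups (1603 and 1332). Leaving out 1 library gave 1 to 3 in IF16 against AL, 0 to 2 in IF16-R against AL-R, 0 to 2 in EOD-R against IF16-R, 0 to 1 in the IF16 interaction and 1 to 3 in the EOD interaction. The background moved as well. Without replicate 1 of AL, where IF16 against AL gave 3, 16.7% of all genes were at that p.

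Here and below, signs were followed gene by gene for all 10 members in IF16 and EOD against AL and in AL-R against AL. Elsewhere they were followed for some members only. In EOD against IF16, 8 of 10 members were positive in the main fit and 6 with the gradient. There 7 were positive without the 3 libraries and 9 with the choroid plexus score, not listed by gene. The log2 fold changes found to change sign were small. With the gradient they were -0.032 for Kdm3a, -0.024 for Jmjd1c and -0.0069 for Phf8 in IF16-R against AL-R, -0.0028 for Phf8 in EOD-R against AL-R, 0.065 for Kdm3a and 0.0041 for Phf8 in EOD-R against IF16-R, -0.041 for Kdm3b, -0.022 for Kdm4a and -0.031 for Phf2 in IF16 against AL, -0.098 for Kdm3b in EOD against AL and -0.048 for Kdm4a in AL-R against AL. Without the 3 libraries they were -0.052 for Kdm3b, -0.041 for Kdm4a, 0.0033 for Kdm4b and -0.018 for Kdm4c in IF16 against AL, -0.087 for Kdm3b and -0.0039 for Kdm4a in EOD against AL, -0.026 for Kdm4a in AL-R against AL and 0.017 for Phf8 in the IF16 interaction. Kdm4d in AL-R against AL was 0.086 with the choroid plexus score. The cause was not tested.

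With 1 library left out, signs changed in IF16 against AL for Kdm1a (-0.049 to 0.0096), Kdm3b (-0.051 to 0.098), Kdm4a (-0.024 to 0.036), Kdm4b (-0.043 to 0.0017) and Phf2 (-0.026 to 0.13), in EOD against AL for Kdm3b (-0.019 to 0.11), in EOD-R against IF16-R for Kdm3a (-0.049 to 0.020), in EOD-R against AL-R for Phf8 (-0.017 to 0.034), in AL-R against AL for Kdm4d (-0.15 to 0.11) and in the IF16 interaction for Phf8 (-0.21 to 0.0065). Kdm3a in IF16 against AL stayed between 0.25 and 0.37, and Phf8 in EOD against AL between 0.19 and 0.51, in all 18 alternatives of each, with edgeR or DESeq2 adjusted p from 0.0902 to 0.612 and from 0.154 to 0.657. With the replicate block the log2 fold changes of Kdm3a were 0.32 in IF16 (adjusted p 0.413) and 0.26 in EOD (adjusted p 0.448), and the block changed no count of members called. In the refed table the block raised the number of all genes called, from 28 to 95 in IF16-R against AL-R. It rose from 7 to 45 in EOD-R against AL-R and from 3 to 40 in EOD-R against IF16-R, with 0 members called in each. No block could be fitted for AL-R against AL. Depth limits Kdm4d alone.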
